A study of Canis lupus familiaris with 25 samples.

Results

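The comparison set 7 canine mammary carcinomas of 3 cm or more against 4 of 1 cm or less, 11 of the 25 arrays of the series. Size was taken from the label of each tumour in cm. The large group held the tumours of dogs 1, 2, 3, 9 and 12 (3 cm each), dog 13 (4 cm) and dog 5 (5 cm). The small group held the tumours of dogs 6, 7 and 11 (1 cm each) and dog 10 (0.5 cm). The 2 cm tumours of dogs 4 and 14 entered neither group and are given beside the results, and the glands of 5 dogs with a large and 4 with a small tumour served as background tissue. Each tumour came from a different dog with a simple carcinoma that had already spread to a lymph node, so both groups were metastatic. No agent, transgene or genetic change was applied to any group. Dogs with large tumours were 9 to 16 years old and those with small tumours 11 to 16. The small group held 2 West Highland White Terriers (dogs 7 and 10), and no breed was shared between the groups. Every tumour carried a minus in the field "era", while 6 of 7 large and 3 of 4 small tumours were labelled HER-2 positive. Specimens were macrodissected for epithelial content, which leaves room for stroma, vessels and leukocytes in each.

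In people, the size of a mammary carcinoma is part of its staging, and growth in size depends on the balance of cell division and loss, on blood supply and on the surrounding matrix. PTGS2 encodes cyclooxygenase-2, the inducible enzyme that makes the precursor of the prostaglandins, and it is the target of common anti-inflammatory drugs. DSCC1 is part of an alternative clamp loader that helps to hold sister chromatids together during replication. These were the marker genes given for the comparison. Both had been picked with earlier results of these arrays known, so their values are a description.

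Across the whole array few differences passed the test. Of 21132 probe sets tested with limma, 2 had an adjusted p of at most 0.05 (0.00946%), both lower in the large tumours and 0 higher. They belong to SERPINB11 and TOMM34, and the next smallest adjusted p was 0.148. The count was 8 without dog 11, 4 without dog 3, 1 without dog 1, and 0 without dog 2, 5, 9, 10 or 13. Without adjustment 707 probe sets were higher and 887 lower at p under 0.05, and centring the arrays turned this split to 862 higher and 710 lower. Counted by gene, with the probe set of the highest mean standing for each of 8712 genes, 273 were higher (3.13%) and 375 lower (4.3%) at an unadjusted p under 0.05. All 7 large tumours lay above all 4 small ones for 26 genes (0.298%) and below them for 32 genes (0.367%). The mean was lower in the large tumours for 4566 of the 8712 genes (52.4%). The median difference over all genes was -0.03 on the log2 scale. These shares are the background for the counts below. They change with the fit, so a count without a dog is to be read against the shares of that fit. Those were 3.96% higher and 6% lower without dog 11, and 5.07% and 6.4% without dog 12. Without dog 3 they were 4.11% and 5.38%. With each other dog left out they lay from 2.13% to 2.9% and from 3.13% to 3.95%. Every gene named below other than SERPINB11, and the called probe set of TOMM34, missed the adjusted threshold (adjusted p from 0.353 to 0.984 by limma). In the text "higher" and "lower" by a log2 difference then describe the 11 tumours, and an unadjusted p under 0.05 is a way of counting and no call.

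The groups were not told apart by the 6 measures compared, which include the age and postoperative survival of the dogs. With 7 and 4 tumours this does not show that the groups were alike. Survival ran from 1 to 9 months with a large tumour and from 2 to 5 with a small one. Its exact 2-sided permutation p was 0.292 (n = 7 and 3). Array medians ran from 3.58 to 3.68 in the large and from 3.58 to 3.77 in the small tumours. The actin 3' minus 5' difference, a sign of RNA degradation, averaged 3.81 in the large and 4.22 in the small tumours (exact 2-sided permutation p = 0.176, n = 7 and 4, adjusted over 6 measures 0.352). Because this measure leaned the same way as several gene groups, counts with it as a covariate are given beside some of them. In that fit 2.56% of all genes were higher and 3.87% lower. A list given without such a count is not thereby unaffected. After removal of each probe set's mean, the tumours of dog 1 (3 cm) and dog 4 (2 cm) correlated at 0.55, above the next pair, dogs 3 and 7, at 0.41. Over the medians of 39 chromosomes dogs 1 and 4 correlated at 0.89. At 399 probe sets chosen because tumour and gland followed each other over the paired dogs other than dog 4, the tumour of dog 4 matched its own gland at 0.70, while the tumour of dog 1 matched the gland of dog 4 at 0.10 and another gland at up to 0.20. At the same probe sets the tumours of dogs 1 and 4 correlated at 0.45. Dog 1 gave no gland array, so the same comparison with its own tissue could not be made. Without dog 1 the counts described below became 15 for mitosis, 5 for hypoxia, 5 for cohesion, 3 for matrix proteases, 4 for basal genes, 3 for prostaglandin genes, and 51, 37 and 12 for chromosomes 13, 24 and 32. Larger shifts without it stand beside their result.

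SERPINB11, a member of the serpin family of protease inhibitors, was 1 of the 2 probe sets that passed the test. In the small tumours it measured 8.76 (dog 6), 5.26 (dog 7), 7.28 (dog 10) and 6.63 (dog 11). In the large tumours it ran from 2.42 to 2.90 (median 2.45), near the lower end of the scale, and in the 2 cm tumours it measured 2.37 and 2.42. The groups did not overlap. The 9 glands ran from 2.30 to 2.46, and of the large tumours only dogs 2 and 3, at 2.52 and 2.90, exceeded them. The difference was -4.47 ± 0.50 (SE) on the log2 scale, with an adjusted p of 0.0144 by limma. All 7 large tumours lay below log2 4, so the size of the fold is uncertain. The probe set met the filter of 4 arrays above log2 4 only through the small tumours, where it was high, and with the filter at 7 of 11 arrays it was not tested and 0 calls were left. The call was lost without dog 1, 2, 5, 9, 10 or 13, each time with an adjusted p between 0.0550 and 0.0818.

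TOMM34 encodes a cochaperone that takes part in the import of proteins into mitochondria. Its called probe set measured 4.74, 5.33, 4.94 and 4.62 in the small tumours of dogs 6, 7, 10 and 11, and 2.24 to 3.06 in the large ones. The groups did not overlap, and the 2 cm tumours lay with the large ones at 2.57 and 2.19. The difference was -2.43 ± 0.26 (SE, adjusted p = 0.0141 by limma), again against a group wholly below log2 4. This probe set too met the filter through the small tumours alone and was not tested with the filter at 7 of 11 arrays. Without dog 2, 5, 9, 10 or 13 the adjusted p lay between 0.0550 and 0.0818. All 3 tested probe sets of TOMM34 were lower in the large tumours. The brightest of them differed by -1.40 ± 0.47 and did not pass (adjusted p = 0.636).

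**Figure D1:**
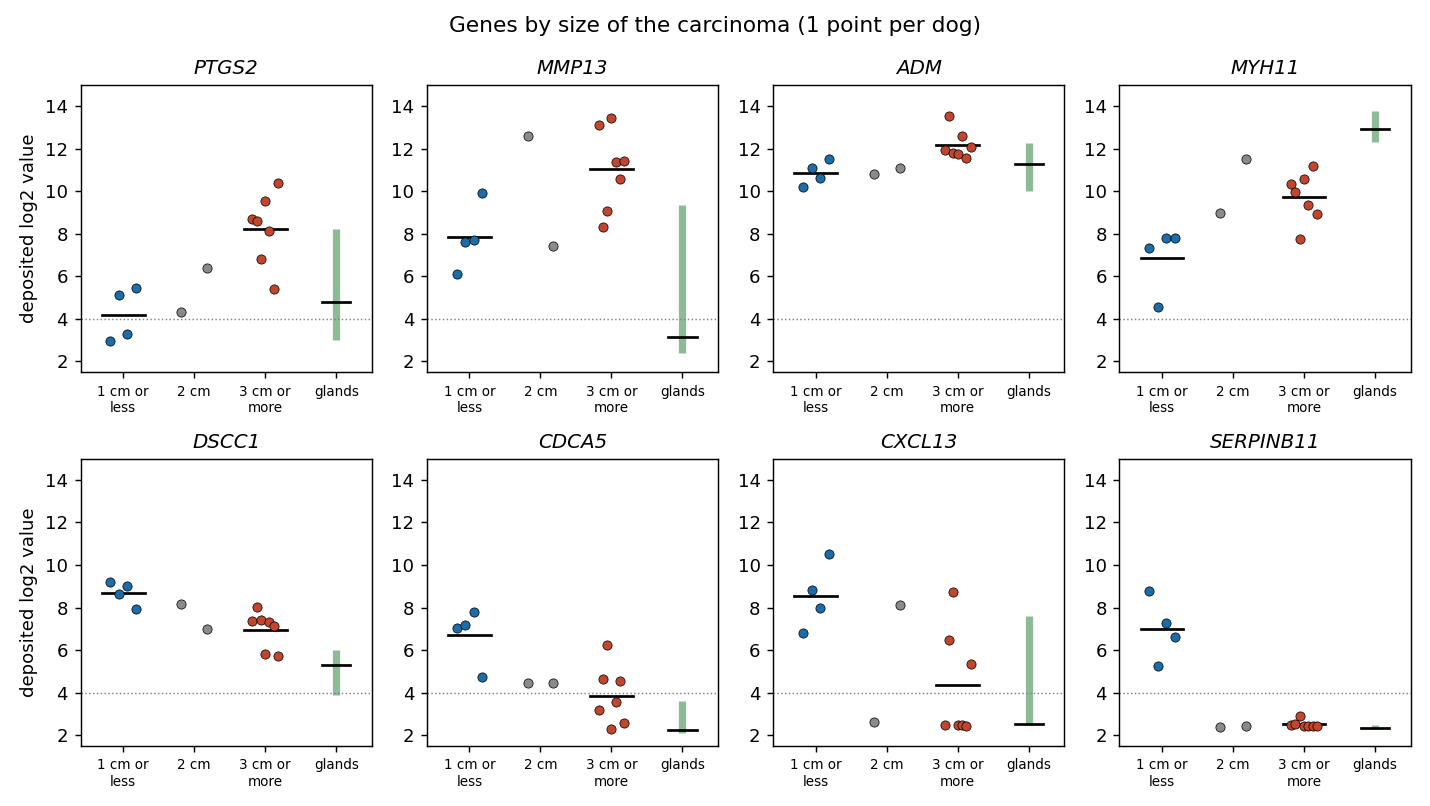
Deposited log2 value (vertical axis) of 8 genes in each tumour by size group. Each point is 1 dog, the black line is the group mean for tumours of 1 cm or less and of 3 cm or more, the green bar spans the glands used as background tissue with their median as a line (9 glands), and the dotted line marks log2 4. SERPINB11 lies between 2.42 and 2.90 in the large tumours and between 5.26 and 8.76 in the small ones, while PTGS2 spans 5.42 to 10.38 in the large and 2.95 to 5.43 in the small tumours.

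PTGS2 was higher in the large tumours. It measured 8.70 (dog 1), 8.61 (dog 2), 6.81 (dog 3), 9.54 (dog 5), 8.15 (dog 9), 5.42 (dog 12) and 10.38 (dog 13). In the small tumours it measured 2.95, 5.12, 3.29 and 5.43 in dogs 6, 7, 10 and 11. The tumours of 4 and 5 cm held the highest values, and of the large tumours that of dog 12 alone reached into the small group. The difference was 4.03 ± 0.87 (SE) on the log2 scale. The 2 cm tumours measured 4.30 (dog 4) and 6.38 (dog 14), between the group means. In the glands of the same dogs the contrast was 2.13, with values from 3.01 to 8.24.

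Other genes of prostaglandin metabolism went both ways. Of 12 tested members, PTGS2 included, 2 were higher at an unadjusted p under 0.05 (16.7% against 3.13% of all genes) and 0 lower. The higher mean was found for 8, and the median difference was 0.42. Apart from PTGS2 only PLA2G4A reached that threshold. PLA2G4A, the cytosolic phospholipase that frees arachidonic acid for PTGS2, differed by 1.82 ± 0.73. It measured 7.95 to 12.09 in the large tumours (median 9.95) and 7.63 to 9.72 in the small ones, so the groups overlapped, with dog 12 low among the large. PTGES, the inducible prostaglandin E synthase, differed by 1.36, PTGS1 by 0.93 and the receptor PTGER4 by 0.32. PTGDS, a prostaglandin D synthase, differed by -1.17, PTGES2 by -0.31, PTGES3 by -0.18 and PTGFRN by -0.12. PLA2G12A, a secreted phospholipase outside the list, showed no overlap, with 8.52 to 8.98 in the large and 6.63 to 8.03 in the small tumours (difference 1.19 ± 0.28). The list count was 1 without dog 2, 5, 10 or 13.

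Among inflammatory cytokines and NF-kB targets 2 of 17 tested members were higher (11.8% against 3.13% of all genes) and 0 were lower. The median difference was 0.43. NFKBIZ, an inducible regulator of NF-kB target genes, was 5.17 to 8.97 in the large tumours and 4.24, 4.30, 4.18 and 5.72 in dogs 6, 7, 10 and 11. Only the large tumour of dog 3 lay below the highest small one, dog 11 (difference 2.12 ± 0.64). IL33, an alarmin cytokine, differed by 1.63 ± 0.71. The count was 1 without dog 1, 6, 7 or 10. The glands showed a like lean, with 14 of 17 members higher in dogs with a large tumour. Genes in general leaned slightly higher in these glands: the median gland difference of a chromosome ran from -0.01 to 0.11, above 0 on most. No share over all genes stands beside this or the later gland counts.

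Hypoxia and glycolysis genes were higher in the large tumours by count. Of 34 tested members 6 were higher at an unadjusted p under 0.05 (17.6% against 3.13% of all genes), 0 were lower, and 26 had the higher mean. The median difference was 0.37. ADM, the vasodilator peptide adrenomedullin and a common target of hypoxia-inducible factor, showed no overlap: it measured 11.59 to 13.54 in the large tumours (median 11.95) and 10.22, 11.10, 10.62 and 11.51 in the small ones. Its difference was 1.33 ± 0.37, and the 2 cm tumours at 10.79 and 11.07 lay within the small group. EGLN3, a prolyl hydroxylase that marks hypoxia-inducible factor for breakdown, differed by 2.01 ± 0.81. P4HA1, which hydroxylates collagen, differed by 0.98 ± 0.33 and HIF1A, the oxygen-regulated subunit of the factor itself, by 0.93 ± 0.33. The glucose transporters SLC2A3 and SLC2A1 differed by 1.17 and 1.12. Glycolytic enzymes went both ways. ALDOA, an aldolase and 1 of the 6 counted, differed by 0.66, LDHA by 0.05, TPI1 by -0.11 and PKM by -0.84, and the marker CA9 differed by 0.54. The count was 3 without dog 10 and 3 with the actin measure as covariate, which also brought 2 members to lower. The glands leaned the same way, with 25 of 34 members higher in dogs with a large tumour and a median of 0.15.

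Matrix proteases and their inhibitors were higher for 4 of 20 tested members (20%), with 0 lower and a median difference of 0.78. MMP13, a collagenase, measured 13.12, 8.30, 9.07, 13.45, 11.40, 10.59 and 11.42 in dogs 1, 2, 3, 5, 9, 12 and 13. The small tumours measured 6.10, 7.62, 7.72 and 9.91, and dogs 2 and 3 lay below the highest of these (difference 3.21 ± 1.00). PLAU, the urokinase that activates plasminogen, differed by 1.56 ± 0.64 and ADAM9, a membrane protease, by 1.14 ± 0.51. CTSB, the lysosomal protease cathepsin B, differed by only 0.49 ± 0.17 but without overlap, at 13.56 to 14.24 against 13.13 to 13.55. The list count was 8 without dog 11, 2 without dog 5, 6 or 7, and 1 with the actin measure as covariate. The lean was not limited to the tumours. In the glands 17 of 20 members were higher in dogs with a large tumour, with a median of 0.39.

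Genes of the stroma pointed the same way, with few past the threshold. Of 32 tested stromal collagens and fibroblast products 30 had the higher mean in the large tumours, the median difference was 0.87, and 2 reached an unadjusted p under 0.05 (6.25%). These were ACTA2, the smooth muscle actin of myofibroblasts and myoepithelium (1.08 ± 0.41), and COL12A1 (1.84), a collagen of fibril surfaces. COL1A1 differed by 0.58, COL3A1 by 0.87 and FN1 by 0.87. The mean of the list lay between 9.91 and 12.86 in the large tumours and between 8.62 and 11.62 in the small ones, so the groups overlapped widely. The count ranged from 0 without dog 7 to 8 without dog 11; it was 7 without dog 12, 5 without dog 3, and 1 without dog 1, 6, 9 or 10. With the actin measure as covariate it was 0 and the median 0.25. Glands leaned likewise, with 24 of 32 members higher in dogs with a large tumour and a median of 0.52. In a bulk specimen more cells of a type and more RNA per cell cannot be told apart, which holds for every cell type list here.

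CCN2, a matricellular protein induced by TGF-beta and by mechanical load, showed no overlap. It measured 13.01 to 14.64 in the large tumours and 12.96, 11.56, 12.79 and 12.57 in the small ones (difference 1.27 ± 0.37). The upper edge of the small group, dog 6, lay just below the lowest large tumour, dog 12. Basement membrane and integrin genes had the higher mean for 24 of 26 tested members (median 0.73), with 1 higher at an unadjusted p under 0.05. That gene was LAMA3, a chain of the laminin that anchors epithelium. It measured 3.66, 3.12, 8.87 and 9.57 in dogs 6, 7, 10 and 11, and 5.46 to 11.38 in the large tumours. Dogs 6 and 7 were thus far below the rest, and the SE of the difference of 3.30 was 1.40. TGFB2, a growth factor of the epithelial-mesenchymal transition list, differed by 1.78 ± 0.81. It was the only 1 of 16 tested members of that list at an unadjusted p under 0.05. The basement membrane count of 1 ranged from 0 to 4 when each dog was left out, highest without dog 3. For this list 19 of 26 members were also higher in the glands of dogs with a large tumour (median 0.34).

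Some genes of myoepithelium were higher in the large tumours. Myoepithelial cells lie between luminal epithelium and basement membrane and squeeze milk out of the gland. Of 13 tested basal and myoepithelial genes 4 were higher (30.8% against 3.13%), 0 were lower, and the median difference was 0.96. MYH11, smooth muscle myosin, measured 10.32, 9.98, 7.74, 10.58, 9.37, 11.18 and 8.95 in dogs 1, 2, 3, 5, 9, 12 and 13. The small tumours measured 7.32, 4.57, 7.80 and 7.82, so only dog 3 of the large group reached into the small one (difference 2.86 ± 0.73). Both groups lay below the 9 glands, which ran from 12.32 to 13.78. MYLK, the myosin light chain kinase, differed by 1.96 ± 0.73, ACTG2 by 1.22 ± 0.48 and ACTA2 by 1.08 ± 0.41. MME, the surface peptidase CD10, differed by 2.50 and the calponin CNN1 by 1.49 without reaching an unadjusted p under 0.05. The other members differed less or in the opposite direction. Among them CALD1 differed by 0.96, KRT17 by 0.66, TRIM29 by 0.10, the contractile genes TAGLN and DES by 0.02 and -0.02, SLPI by -0.47 and CDH3 by -1.24. The count was 1 without dog 6, 2 without dog 7, 7 without dog 11 and 1 with the actin measure as covariate. In the glands this list leaned the other way, with 8 of 13 members lower and a median of -0.27. KRT5 and KRT14, defining basal keratins, had no named probe set here.

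Epithelial genes were measured in both groups, and several of them varied widely between tumours. EPCAM, an epithelial adhesion molecule, measured 12.55 to 14.46 in the large and 13.50 to 14.24 in the small tumours. KRT8, a luminal keratin, measured 11.98 to 14.57 and 10.31 to 14.08. The ranges were wider for KRT18, at 9.90 to 14.32 and 6.34 to 13.60, and for KRT7, at 9.01 to 14.03 and 8.84 to 13.78. CDH1 measured 6.0 to 8.8 and 5.3 to 8.9. ELF3 measured 6.94 to 10.37 and 4.75 to 10.1, and EHF 6.6 to 12.65 and 9.3 to 11.32. Of 18 tested luminal and hormone receptor genes 1 was higher, 1 was lower, and the median difference was 0.56. ELF5, a transcription factor of alveolar luminal progenitors and milk-producing cells, had the lowest difference of the list at -4.81 ± 1.61. It measured 13.96, 12.04, 8.17 and 8.76 in the small tumours of dogs 6, 7, 10 and 11. Large tumours measured 4.78, 6.03, 9.77, 4.82, 2.46, 10.22 and 3.35, so dogs 3 and 12 lay inside the small group. The milk list showed 0 of 14 members in either direction, and its smallest p belonged to STAT5B, a transducer of prolactin (-0.68 ± 0.38).

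The receptors used to type mammary tumours gave no difference at this number of dogs. ERBB2, the gene of HER-2, differed by -0.06 ± 0.67 and spanned 4.75 to 7.99 in the large and 4.61 to 7.19 in the small tumours. Its sign turned under several settings. PGR, the progesterone receptor, differed by 0.59 ± 1.22 and spanned 3.45 to 8.65 and 2.46 to 7.84. ESR1 and MKI67 were not tested here. Of 26 tested receptor tyrosine kinases and ligands 3 were higher (11.5%) and 0 lower, with a median of 0.14. MET, the receptor of hepatocyte growth factor, measured 4.79 to 8.19 in the large and 4.08 to 5.76 in the small tumours. Its difference was 1.89 ± 0.62, with dog 3 alone of the large group inside the small range. FGF7, a growth factor made by mesenchyme for epithelium, differed by 2.75 ± 1.14 and NRG1, a ligand of the ERBB receptors, by 1.37 ± 0.59. For NRG1 every small tumour and 3 large ones lay below log2 4. It thus met the filter of 4 arrays only through large tumours, where it was high, and its place in the count rests on that. The count of 3 was 1 without dog 5, 7 or 10.

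**Figure D2:**
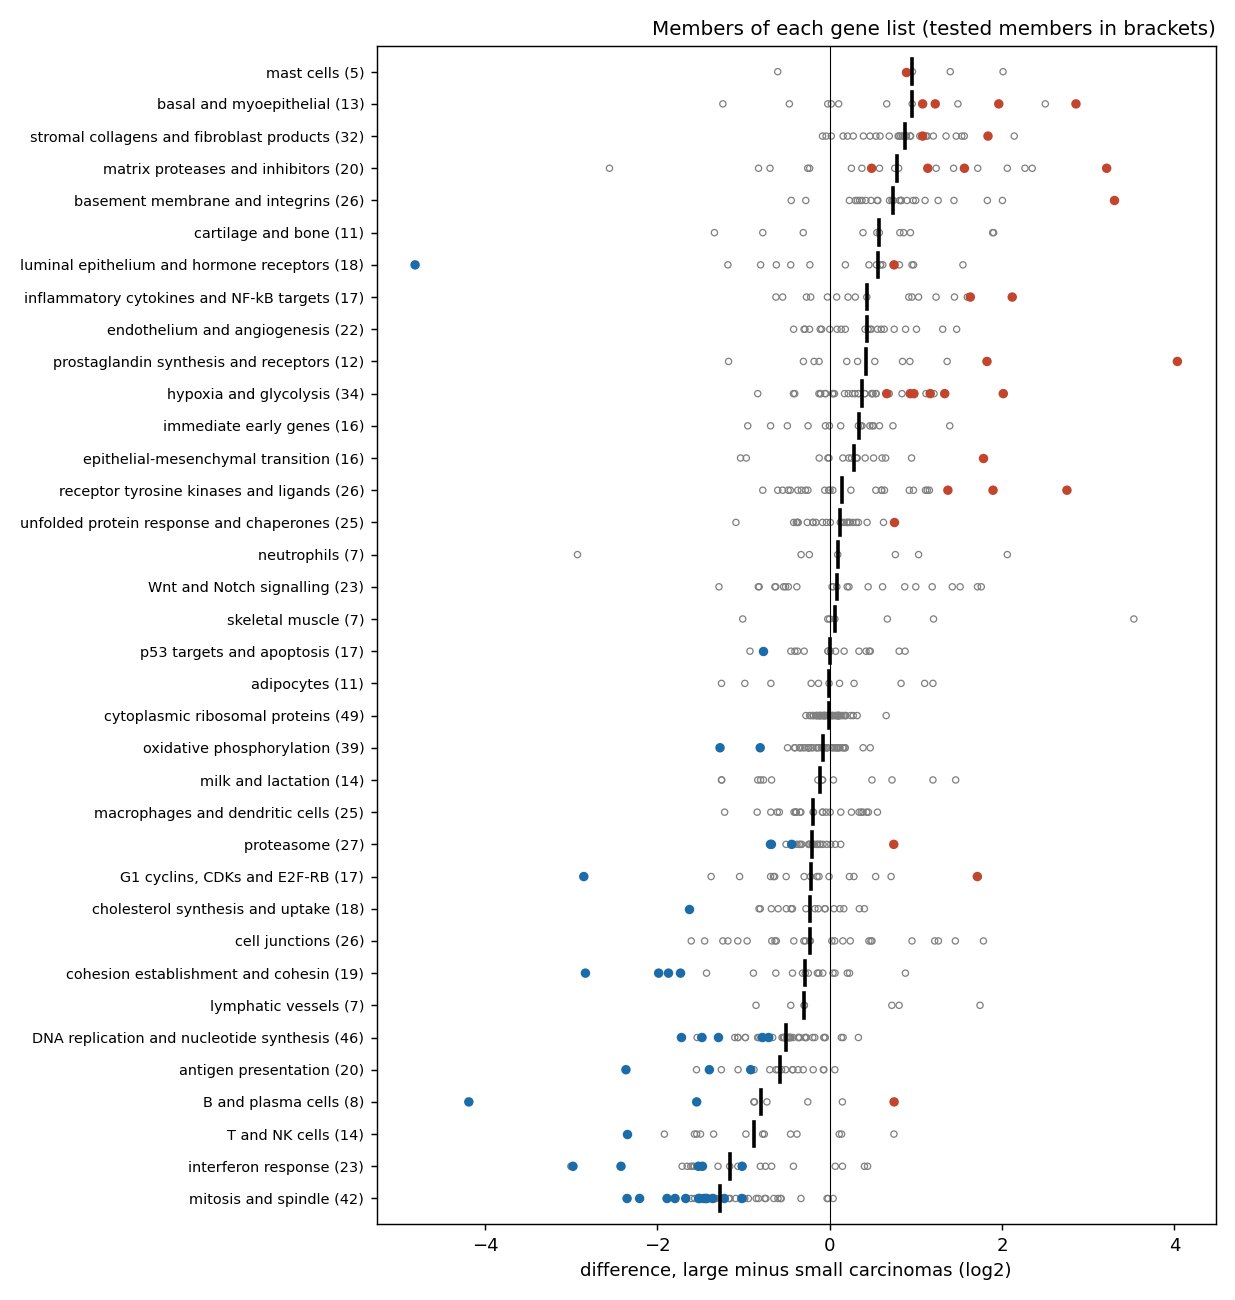
Difference of each tested member of the gene lists, large minus small tumours on the log2 scale (horizontal axis), with the lists ordered by their median (black bar) and the number of tested members in brackets. Filled points had an unadjusted p under 0.05 by limma, red where higher and blue where lower in the large tumours, and open points did not. The mitosis list lies lowest at a median of -1.28 with 13 filled points, and ribosomal protein genes crowd around -0.01.

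Genes of cell division were lower in the large tumours. Of 42 tested mitosis and spindle genes 41 had the lower mean in the large tumours, 13 at an unadjusted p under 0.05 (31% against 4.3% of all genes), and 0 were higher. The median difference was -1.28. CDCA8, a subunit of the chromosomal passenger complex, measured 5.62, 5.80, 7.26 and 6.35 in the small tumours. It measured 2.44, 5.92, 3.80, 2.33, 5.19, 5.30 and 2.38 in dogs 1, 2, 3, 5, 9, 12 and 13. The difference was -2.35 ± 0.76, and dog 2 reached into the small group. INCENP, the scaffold of the same complex, differed by -1.02 ± 0.35. The spindle kinase AURKA differed by -1.67 ± 0.62 and its activator TPX2 by -1.89 ± 0.74. FOXM1, a transcription factor that drives mitotic genes, differed by -1.52 and the kinase PLK1 by -1.51. TOP2A and CDK1 leaned less, by -0.75 and -0.74.

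The mean of the mitosis list in each tumour shows which dogs made this difference. Among the small tumours it was 9.51 in dog 6, 9.12 in dogs 7 and 10, and 7.52 in dog 11. Among the large tumours it was 8.34, 8.90, 8.35, 6.19, 7.54, 7.72 and 6.58 in dogs 1, 2, 3, 5, 9, 12 and 13. The 5 cm and the 4 cm tumour were lowest, and dog 11 lay among the large tumours. The 2 cm tumours measured 8.48 (dog 4) and 7.23 (dog 14). The count of 13 was 2 without dog 6 or 7, 4 without dog 5, 10 or 13, 8 without dog 9, and 26 without dog 11. It was 2 with the actin measure as covariate and 8 with centred arrays, and the median stayed negative in all of these. In the glands the list leaned the other way, with 39 of 42 members higher in dogs with a large tumour and a median of 0.32.

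DSCC1 shared this pattern. It measured 9.20, 8.65, 9.00 and 7.94 in the small tumours of dogs 6, 7, 10 and 11. Values in the large tumours were 7.37, 8.01, 7.40, 5.83, 7.31, 7.14 and 5.71, again lowest in dogs 5 and 13 with the largest tumours. Only dog 2 exceeded dog 11, and the difference was -1.73 ± 0.46 (SE). The 2 cm tumours measured 8.18 and 6.98, and the 9 glands lay at 3.89 to 6.01.

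Of the 19 tested genes of sister chromatid cohesion 4 were lower (21.1%) and 0 higher, with a median of -0.28. All 4 act in setting up, protecting or cutting cohesion during the cell cycle. DSCC1 was the first, but it had been picked as a marker with earlier results known, so only the other 3 add to it. CDCA5, which is sororin and protects cohesin, measured 7.06, 7.16, 7.80 and 4.74 in the small tumours and 2.27 to 6.22 in the large ones (-2.84 ± 0.77). ESPL1, the separase that cuts cohesin, differed by -1.99 ± 0.77 and ESCO2, which acetylates cohesin in S phase, by -1.87 ± 0.81. For each of the last 3 dog 11 was lowest of the small tumours. The count was 8 without dog 11, 2 without dog 6 or 10, and 2 with the actin measure as covariate.

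DNA replication genes leaned the same way with smaller differences. Of 46 tested members 43 had the lower mean, 5 at an unadjusted p under 0.05 (10.9%), and the median was -0.51. CDC45, part of the replicative helicase, measured 7.89, 7.58, 6.63 and 7.90 in the small and 3.81 to 7.63 in the large tumours (-1.72 ± 0.71). RRM2, the inducible subunit of ribonucleotide reductase, differed by -1.29 ± 0.48, CDT1, which loads the helicase, by -0.71 ± 0.28, and GINS3 by -0.78 ± 0.33. The count was 13 without dog 11, 10 without dog 3, 3 without dog 9 or 10, 2 without dog 7 or 13, and 1 without dog 5 or 6. With the actin measure as covariate it was 2. Cyclins and the E2F-RB group showed no common direction, with 1 higher and 1 lower of 17. The lower gene was E2F8, an atypical E2F expressed in S phase (-2.85 ± 0.87). It measured 6.51, 6.94, 8.21 and 3.37 in dogs 6, 7, 10 and 11, and lay below log2 4 in 6 of 7 large tumours. It just met the filter of 4 arrays, through dogs 6, 7 and 10 and the large tumour of dog 3.

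**Figure D3:**
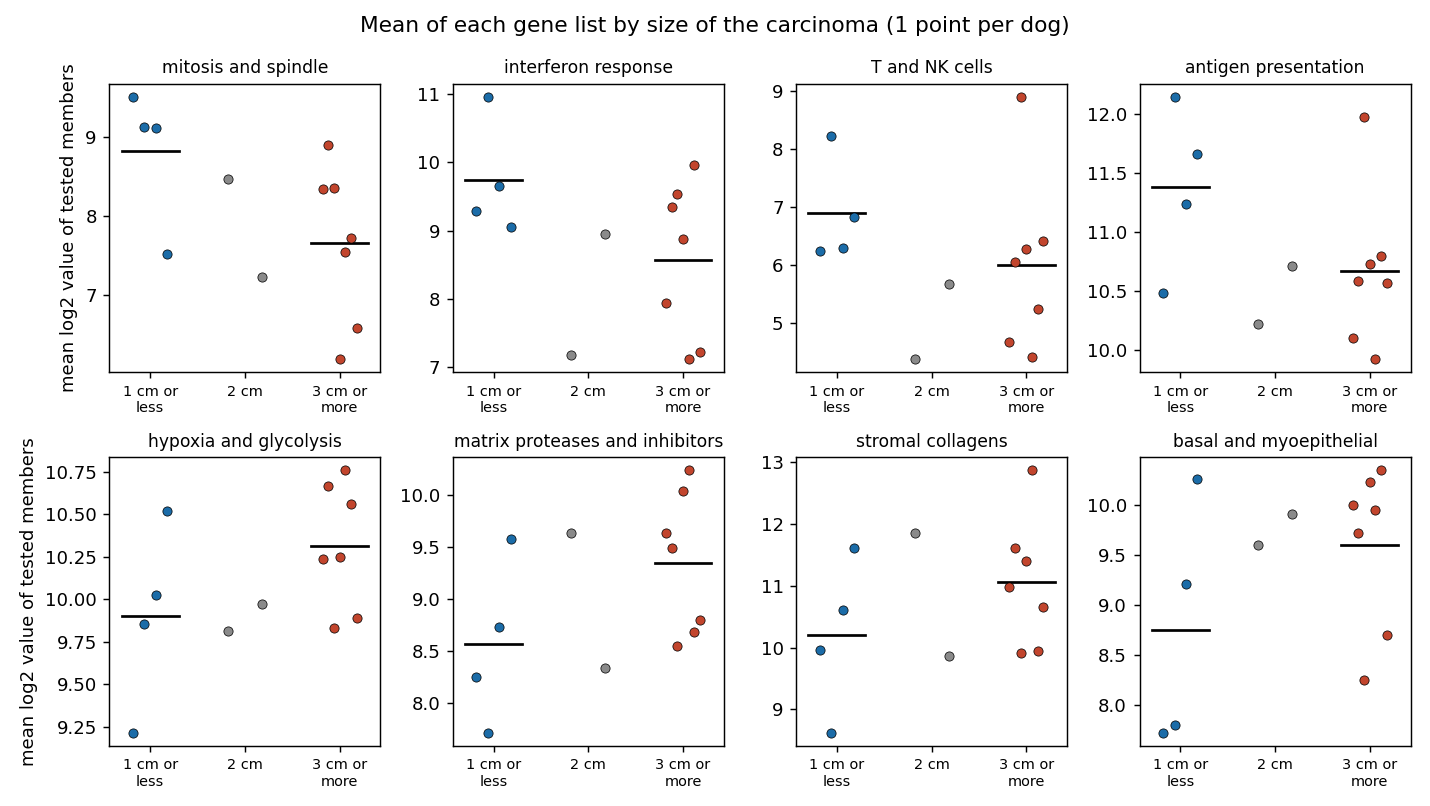
Mean log2 value of the tested members of 8 gene lists in each tumour by size group, 1 point per dog, with the group mean as a black line for the tumours of 1 cm or less and of 3 cm or more. Vertical axes differ between panels and do not start at 0. Mitosis means run from 7.52 to 9.51 in the small and from 6.19 to 8.90 in the large tumours, and in each panel the groups overlap.

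Interferon-response genes were lower in the large tumours. Of 23 tested members 19 had the lower mean, 5 at an unadjusted p under 0.05 (21.7%), 0 were higher, and the median was -1.16. RSAD2, the antiviral protein viperin, measured 6.65, 9.20, 6.97 and 6.52 in the small tumours. It measured 3.08, 4.83, 6.28, 3.18, 3.02, 7.20 and 2.88 in dogs 1, 2, 3, 5, 9, 12 and 13 (-2.98 ± 0.91), and dog 12 alone reached the small group. CMPK2, an interferon-induced nucleotide kinase, differed by -2.42 ± 0.83, with dog 12 at 10.67 again high. EPSTI1 differed by -1.52 ± 0.62 and the RNA sensor IFIH1 by -1.02 ± 0.44. CXCL10, a chemokine that draws T cells, differed by -3.01 without reaching an unadjusted p under 0.05, and OAS2 and HERC6 leaned the other way at 0.40 and 0.44. The count was 9 without dog 12, 3 without dog 5, 10 or 13, and 2 without dog 1, 7 or 9. It was 3 with centred arrays and 2 with the actin measure as covariate. The glands leaned likewise, with 21 of 23 members lower in dogs with a large tumour and a median of -0.62.

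Antigen presentation genes had the lower mean for 19 of 20 tested members, with 3 at an unadjusted p under 0.05 (15%), 0 higher and a median of -0.58. CIITA, the master regulator of MHC class II genes, measured 2.86, 5.79, 5.24 and 4.74 in the small tumours. In the large tumours it lay between 2.77 and 3.36 except in dog 3, at 5.03 (difference -1.40 ± 0.57). DLA-DOA, a class II accessory chain, showed the same dogs apart: dog 6 was low among the small at 3.02 and dog 3 high among the large at 6.46. Both genes lay below log2 4 in 6 of 7 large tumours. They just met the filter of 4 arrays, through the small tumours of dogs 7, 10 and 11 and the large one of dog 3. Their place in the count rests on that. DLA88, a class I heavy chain, differed by -0.92 ± 0.40 at its brightest probe set and by 5.68 at its other one, so no direction is given for it. The counts above use its brightest probe set, and without it 2 members were lower at an unadjusted p under 0.05. The count was 7 without dog 3, 1 without dog 1, 5, 9 or 13, and 0 without dog 7, 10 or 11.

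Few T cell genes passed the threshold. Of 14 tested T and NK cell genes 11 had the lower mean, the median was -0.88, and 1 reached an unadjusted p under 0.05 (7.14%, near the 4.3% of all genes). CD3E, GZMK and CD8B had the higher mean in the large tumours, by 0.11, 0.14 and 0.74. That gene was LCK, the T cell kinase, at 6.56, 8.16, 6.82 and 7.22 in the small tumours. In the large tumours it lay between 3.15 and 5.48 except in dog 3, at 8.92 (difference -2.36 ± 0.92). The list mean ran from 4.41 to 8.90 in the large and from 6.23 to 8.22 in the small tumours, with dog 3 highest of all 11. Without dog 3 the count was 7 of 14, without dog 10 or 11 it was 2, and without dog 7 it was 0. Of 8 B and plasma cell genes 2 were lower (25%) and 1 higher (12.5%). CXCL13, the chemokine that draws B cells into follicles, measured 6.82, 8.81, 8.00 and 10.53 in the small tumours. In the large tumours dogs 2, 3 and 13 measured 6.48, 8.73 and 5.35, and the other 4 between 2.44 and 2.50 (difference -4.19 ± 1.25). MS4A1, the B cell marker CD20, differed by -1.54 ± 0.52. XBP1, which plasma cells share with any secretory cell, was the higher one (0.75 ± 0.28).

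Other leukocyte and vessel lists held few differences. Of 25 macrophage and dendritic cell genes and of 7 neutrophil genes 0 reached an unadjusted p under 0.05 in either direction, with medians of -0.19 and 0.09. Of 5 mast cell genes 1 was higher (20%), MS4A2, a chain of the IgE receptor (0.89 ± 0.35). The 22 endothelial genes had a median of 0.43 and the 7 lymphatic vessel genes one of -0.30, again with 0 past the threshold. Their gland medians were 0.54 and -0.45. Adipocyte genes had a median of -0.01 over 11 members, cartilage and bone genes 0.57 over 11 and skeletal muscle genes 0.06 over 7, with 0 members in each. Of the cell type lists the basal and myoepithelial one thus held the largest share of genes higher in the large tumours. Whether unequal shares of these cells took part in the differences of other lists was not tested.

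Genes of basic cell upkeep differed little. Of 49 cytoplasmic ribosomal protein genes 0 reached an unadjusted p under 0.05, and their median was -0.01. Oxidative phosphorylation had 2 of 39 lower (5.13%) and a median of -0.08, and its smallest p belonged to CYC1, cytochrome c1 (-1.27 ± 0.39). The count was 1 without dog 1, 7, 9, 10 or 13. Proteasome genes had the lower mean in 23 of 27 members and a median of -0.21, with 3 lower (11.1%) and 1 higher. The 3 were subunits of the alpha ring of the core particle: PSMA1 (-0.69 ± 0.22), PSMA4 (-0.68 ± 0.26) and PSMA7 (-0.44 ± 0.17). This count was 5 without dog 11 and 1 without dog 6. Cholesterol synthesis had 1 of 18 lower, CYP51A1 (-1.64 ± 0.47), a sterol demethylase that was highest in the small tumours of dogs 6 and 11 at 13.44 and 12.46. Unfolded protein response genes had 1 of 25 higher, again XBP1. The p53 and apoptosis list had 1 of 17 lower, the survival factor BCL2L1, which did not overlap (8.10 to 8.60 against 8.64 to 10.04). Immediate early genes, Wnt and Notch genes and cell junction genes had 0 of 16, 23 and 26 in either direction.

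**Figure D4:**
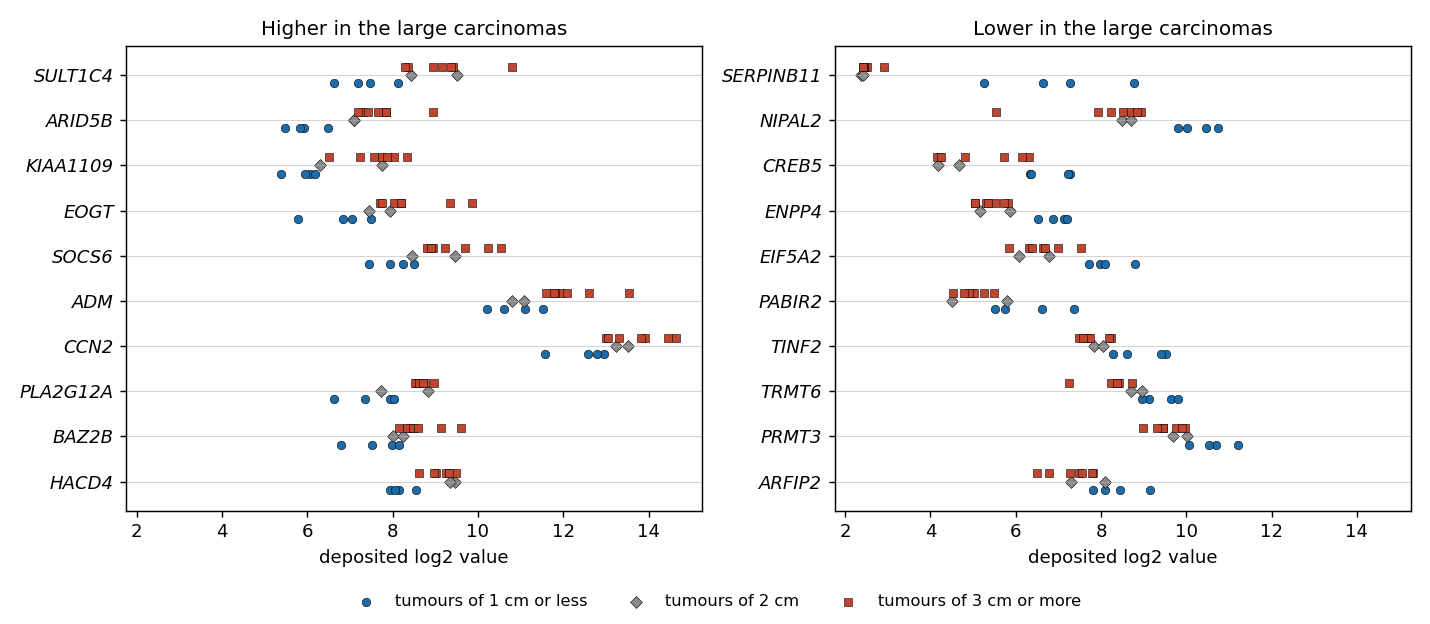
Deposited log2 value (horizontal axis) in every tumour of the 10 genes with the largest higher and the 10 with the largest lower difference among genes whose groups did not overlap. Circles are tumours of 1 cm or less, squares tumours of 3 cm or more and diamonds the 2 cm tumours, 1 point per dog. For SULT1C4 the large tumours start at 8.30 and the small ones end at 8.12, and SERPINB11 shows the widest gap.

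Among genes that separated the groups fully, those with the largest differences belong to no single pathway. SULT1C4, a sulfotransferase, measured 8.30 to 10.80 in the large tumours (median 9.16) and 6.62, 7.19, 7.48 and 8.12 in the small ones (1.84 ± 0.46). ARID5B, a DNA-binding coactivator, measured 7.18 to 8.96 against 5.48 to 6.48 (1.82 ± 0.36). The next were KIAA1109, a bridge-like lipid transfer protein (1.72 ± 0.35), EOGT, which glycosylates EGF-like domains (1.64 ± 0.48), and SOCS6, a suppressor of cytokine signalling (1.44 ± 0.38). BAZ2B, a bromodomain protein, differed by 1.06 ± 0.35 and HACD4, an enzyme of very long chain fatty acids, by 0.97 ± 0.23. Some of these gaps were narrow: the lowest large and the highest small tumour measured 8.80 and 8.50 for SOCS6, while for ARID5B they measured 7.18 and 6.48. In the glands KIAA1109 and SOCS6 differed the same way, by 0.79 and 0.77, and SULT1C4 and ARID5B by only 0.22 and 0.15.

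On the lower side NIPAL2, a membrane protein related to magnesium transporters, followed SERPINB11. It measured 10.47, 10.74, 9.80 and 10.01 in the small tumours and 5.55 to 8.93 in the large ones (-2.16 ± 0.57), with dog 2 lowest by far. CREB5, a transcription factor, differed by -1.71 ± 0.50, with 6.32 in dog 5 just below 6.34 in dog 6. ENPP4, an ectonucleotidase, measured 6.51 to 7.20 in the small and 5.04 to 5.83 in the large tumours (-1.52 ± 0.27, adjusted p = 0.353 by limma). The same contrast in the glands was -1.60, so the lean was not limited to the tumours. EIF5A2, a translation factor, differed by -1.51 ± 0.34. PABIR2, TINF2, TRMT6, PRMT3 and ARFIP2 completed the lower 10 with differences from -1.31 to -1.06. TINF2 belongs to the complex that protects telomeres, TRMT6 to a transfer RNA methyltransferase, and PRMT3 methylates arginines of a ribosomal protein. For PRMT3 the gap between the groups was 9.96 in dog 1 against 10.07 in dog 6.

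Genes lower in the large tumours were spread unevenly over the chromosomes, as placed by a RefSeq table of the assembly UU_Cfam_GSD_1.0. This was seen in the data and is given as a description. Of 167 tested genes of chromosome 13, 48 were lower at an unadjusted p under 0.05 (28.7% against 4.3% of all genes) and 0 were higher. The lower mean was found for 145 of them, with a median of -0.57. Chromosome 24 followed with 36 of 204 lower (17.6%), 1 higher and a median of -0.46. Outside these chromosomes 275 of 7862 genes (3.5%) were lower. DSCC1, NIPAL2 and CYC1 lie on chromosome 13, and TOMM34, AURKA, TPX2, TRMT6, PSMA7 and BCL2L1 on chromosome 24. The difference ran along the whole of both: in 4 nearly equal stretches by gene order the medians were -0.54, -0.58, -0.73 and -0.48 on chromosome 13 and -0.43, -0.48, -0.43 and -0.48 on chromosome 24. Chromosome 2 had 39 of 347 lower (11.2%) and chromosome 21 had 18 of 158 (11.4%). On the higher side chromosome 32 led with 15 of 104 (14.4%) and a median of 0.36, and 5 of the 26 genes that were higher without overlap lay on it, PLA2G12A among them. Without dog 10 the count of 15 was 7.

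The per-tumour values show which dogs carried the pattern. The median over chromosome 13 genes, each taken relative to its mean over the 11 tumours, was 0.86, 0.45, 0.12 and 0.14 in the small tumours of dogs 6, 7, 10 and 11. In the large tumours it was -0.07, -0.36, -0.42, -0.42, -0.22, 0.38 and -0.54 in dogs 1, 2, 3, 5, 9, 12 and 13. All small tumours were thus above 0, and of the large ones dog 12 alone was. The 2 cm tumours measured -0.10 and -0.19. The glands of the same dogs stayed between -0.09 and 0.11, and their median difference was 0.04. The count of 48 was 25 without dog 6, 69 without dog 12 and 51 without dog 1. Chromosome 24 overlapped more: its medians were 0.24, 0.65, 0.12 and 0.14 in the small tumours and 0.16, -0.29, 0.07, -0.44, -0.38, 0.14 and -0.46 in the large ones. Dogs 1 and 12 of the large group thus lay above dog 10. The 2 cm tumours measured 0.28 (dog 4), above every small tumour but that of dog 7, and -0.37 (dog 14). The glands lay between -0.19 and 0.09. For chromosome 24 the count of 36 was 15 without dog 7 and 50 without dog 12. With the actin measure as covariate the counts were 30 and 21. Only 2 of the 42 tested mitosis genes lie on these chromosomes. Of the 40 elsewhere 11 were lower, with a median of -1.23. Whether the mitosis and chromosome patterns are linked was not tested. Of the 17 tested cohesion genes elsewhere, DSCC1 thus left out, 3 were lower, with a median of -0.25.

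**Figure D5:**
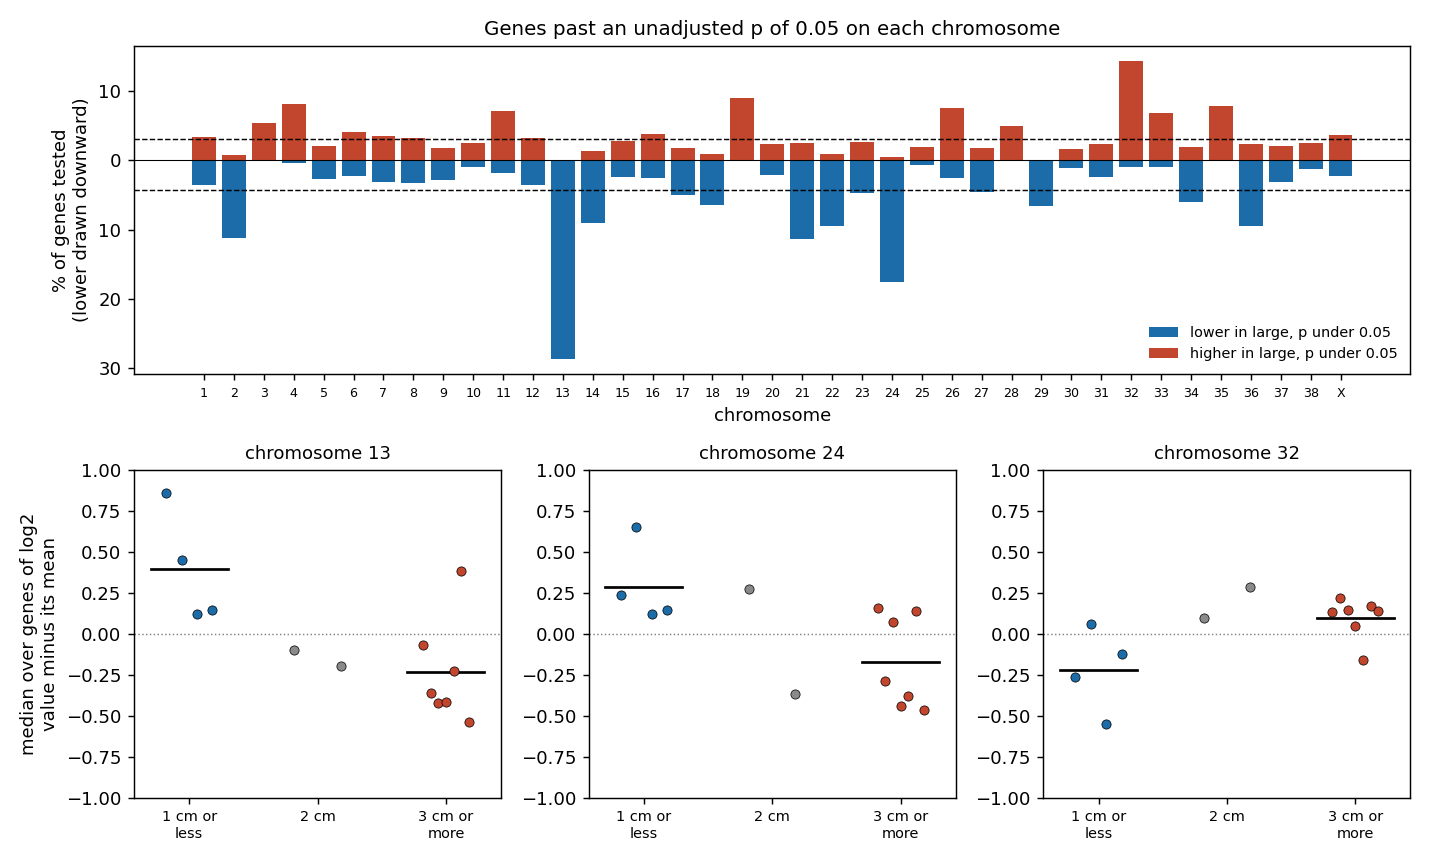
Top, percent of the tested genes of each chromosome with an unadjusted p under 0.05, higher in the large tumours upward and lower downward, with dashed lines at 3.13% and 4.3%, the shares over all genes. Bottom, median over the genes of 3 chromosomes of the log2 value minus its mean over the 11 tumours, 1 point per dog, with group means as black lines; chromosome 13 stands at 28.7% lower, and its medians run from 0.12 to 0.86 in the small tumours.

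The 2 cm tumours took no part in the comparison and were set beside the genes that separated the groups. Of them the tumour of dog 14 lay mostly with the large ones, and that of dog 4 less often. The genes had been chosen because every small tumour lay beyond all large ones, and the small group held fewer tumours. A tumour left out of that choice can therefore fall with the large group by selection, and no likeness to either group is concluded. For the lower 10 genes the tumour of dog 14 was at or past the range of the large group in 9 and between the groups in 1. The tumour of dog 4 was with the large group in 6 and with the small group in 2. For the higher 10 genes dog 14 lay with the large tumours in 6 and with the small in 3, and dog 4 in 5 and 3. Dog 4 is the tumour that resembled that of dog 1, a member of the large group. Counting the 2 cm tumours as large left 2 probe sets called, and counting them as small left 0.

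The glands show how far the dogs themselves differed. Of 20887 probe sets tested between the glands of 5 dogs with a large and 4 with a small tumour 0 had an adjusted p of at most 0.05 by limma (0%), with 458 at an unadjusted p under 0.05 (2.19%). The tumour minus gland difference was then compared between the same 5 and 4 dogs, with each dog as a block. Of 22073 probe sets 0 passed by limma (0%), with 1132 at an unadjusted p under 0.05 (5.13%) and a smallest adjusted p of 0.243. For SERPINB11 this interaction was -4.38 ± 0.59 (SE) and for MYH11 2.76 ± 0.74. For PTGS2 it was 1.82 ± 1.45, beside a difference of 4.03 between the 7 and 4 tumours and of 2.13 between the glands. For DSCC1 it was -2.25 ± 0.55.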

How the data were processed

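Per the labels, biotin-labelled RNA from 13 tumours and 12 glands was measured on Affymetrix arrays for the dog. The authors deposited 1 table of log2 values for 43035 probe sets, and the submitters' processing notes name Partek, GCRMA and RMA without saying which step each made. Values ran from 0.86 to 16.66 and were used as deposited. The number of arrays limits the precision. After 111 control probe sets were left out, probe sets above log2 4 in at least 4 of the 11 arrays were tested with limma 3.58.1 in R 4.3.3 (lmFit, then eBayes with a mean trend), with Benjamini-Hochberg adjustment over all of them. The scripts were tested on simulated data.

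Gene names came from the platform annotation: 29264 probe sets had 1 symbol, 439 had several and were not named. Of the Entrez IDs 27690 were found in the RefSeq table of UU_Cfam_GSD_1.0, which gave chromosomes only. Where several tested probe sets named a gene, the brightest by mean over 25 arrays stood for it. Named genes were those passing the adjusted test, the 10 largest differences each way among genes without overlap (unadjusted p under 0.05, mean of at least log2 6 in the higher group), PTGS2, DSCC1 and the typing receptors. To these came up to 4 genes of smallest p from each list whose share at an unadjusted p under 0.05 was at least 2 times the background, and the gene of smallest p from other lists. Further members of the lists given with a difference only were chosen after their values were seen. The comparison, its markers and the 39 gene lists were chosen with earlier results of these data known, and DNA repair genes are not reported here.

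The labels give the dog of each array, so tumour and gland of a dog are paired. Over 11 pairs the same-dog correlation of deviations lay between 0.112 and 0.442 (median between dogs -0.0628), and the dog was a block in the comparison of both tissues. Array measures and age were compared by exact permutation over 330 assignments, and survival, not given for dog 11, over 120. Alternatives covered the filter, centring, quantile scaling, the trend, array weights, the 2 cm tumours, size as a slope, age, title suffix, the actin measure, HER-2 label, paired dogs and leaving out each dog.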

Additional observations from a re-analysis of the deposited data

Results flagged for a closer look

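Single tumours stood apart from the rest of their size group in 16 of 176 groups of values examined, by a gap that chance gives in about 1 of 20 groups. The tumour of dog 3 did so most often. Among the large tumours it was high for SERPINB11 (2.90, next 2.52), LCK (8.92, next 5.48), DLA-DOA (6.46, next 3.40) and CIITA (5.03, next 3.36), and low for LAMA3 (5.46, next 8.92). Both SERPINB11 values lay below log2 4, near the lower end of the scale, so no weight is put on that gap. LCK, DLA-DOA and CIITA are genes of T cells and of antigen presentation.

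The tumour of dog 2 was high for ARID5B (8.96, next 7.85) and low for NIPAL2 (5.55, next 7.93). That of dog 9 was low for TRMT6 (7.25, next 8.24) and high for PPARG, a regulator of fat cells (9.33, next 6.05). Among the small tumours dog 11 was low for the S-phase genes ESCO2 (6.19, next 8.96) and RRM2 (10.38, next 11.40) and high for NFKBIZ (5.72, next 4.30). Dog 7 was low for MYH11 (4.57, next 7.32) and high for RSAD2 (9.20, next 6.97). Dog 6 was low for VEGFD, a growth factor of lymphatic vessels (4.30, next 5.31), and for DLA-DOA (3.02, next 6.46).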

How the results depend on the processing

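Of 88 named differences 85 kept their sign under every alternative run. Most had been chosen in these same data for groups without overlap or a small p, which favours a kept sign. The count is therefore no independent support for them. The count of 2 probe sets called between large and small tumours was 0 with the filter at 7 of 11 arrays, the 2 cm tumours as small, either slope on size, the actin covariate, HER-2 positive tumours only, paired dogs only, and the exact permutation test. It ranged from 0 to 8 when each dog was left out, with 4 without dog 3 and 8 without dog 11. With no filter it was 3. For the glands the count of 0 ranged from 0 to 1 when each was left out. For the tumour minus gland difference it was 1 with no filter and 0 to 3 when each dog was left out. The fit with the dog as replicate block and that with no replicate block both gave 0 calls, with 1132 and 619 probe sets at an unadjusted p under 0.05. ERBB2 turned from -0.06 to 0.16 with the 2 cm tumours as large, with age and with the actin covariate, to 0.060 with paired dogs only, and to between 0.05 and 0.31 without dog 2, 3, 9, 10 or 11. PGR turned from 0.59 to -0.29 in HER-2 positive tumours and ranged from -0.55 (without dog 6) to 1.24 when each dog was left out. DLA88 was 5.68 at its probe set of largest variance. The cause of these changes was not tested. Mitosis genes lower in the large tumours numbered 3 and interferon genes 1 with the 2 cm tumours as small. Differences that rest on values below log2 4 have no sure size. Such values made up all 7 large tumours for SERPINB11 and the called TOMM34 probe set, 6 for E2F8, CIITA and DLA-DOA, and 4 for CDCA5, CDCA8, CXCL13 and RSAD2. Of the 4 small tumours they made up all for NRG1, 3 for FGF7, and 2 for PTGS2 and LAMA3.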
